A study of Mus musculus with 12 samples.

Results

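Meiotic double-strand break hotspots that lie inside very long genes are described here, in testes of Ankrd31 knockout mice and of wild type mice. A hotspot was taken when its centre lay inside a protein-coding gene of over 500 kb on an autosome, with genes as RefSeq gives them for GRCm38. This selected 1238 of the 22034 hotspots in the knockout list and 971 of the 13480 in the wild type list, 2209 of 35514 in all. They lie in 215 genes with a median length of 735 kb and a longest of 2270.51 kb (Ptprd), which together cover 179.585 Mb. Of the knockout hotspots 872 overlapped a wild type hotspot by at least 1 bp and are called shared, and 366 had no partner and are called knockout-only. Over all autosomes 47.4% of knockout hotspots were knockout-only. Of the wild type hotspots 99 had no partner and are called wild-type-only, against 15% over all autosomes.

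The knockout mice carry the allele Ankrd31 tm1Atot, and the labels give no background strain for them. The wild type mice are C57BL/6JCrl (B6), so allele and strain cannot be told apart where strains differ. Both groups are adult males, and whole testis was used, with DMC1 antibody and recovery of single-stranded DNA (DMC1-SSDS). Each genotype has 2 samples and 1 deposited list, and how the samples were joined is not stated there. There is therefore no replicate check between genotypes, and no p-value is given. All intervals are 95% intervals and cover counting error only.

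In meiosis the topoisomerase-like protein SPO11 cuts the DNA and the recombinase DMC1 binds the single strands beside the break, so that DMC1-bound DNA marks where recombination starts. In mice most breaks lie where the DNA-binding methyltransferase PRDM9 marks histones, away from promoters. ANKRD31 is a partner of the break-forming protein REC114. Very long genes are mostly introns. Many of them encode adhesion molecules, channels and scaffolds of neurons, and in humans several span common fragile sites.

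Knockout-only hotspots in long genes included 20 at the start of the gene and 24 at further annotated starts inside it, and sequences before such starts are shown first. The 250 bases before the transcription start are printed for the 5 strongest knockout-only hotspots that lay inside a long gene and within 1 kb of an annotated start, with every CG dinucleotide in capitals. The sequences are from RefSeq, GRCm38.p6, 5′ to 3′ on the strand of the gene. Celf2, an RNA-binding splicing regulator, is on the minus strand at chr2:6872036-6872285 with 43 CG, and its hotspot had a strength of 389. Strength is the deposited read count of a hotspot less its background. Lpp, a LIM-domain protein of focal adhesions, is on the plus strand at chr16:24393100-24393349 with 18 CG and a strength of 258. Lrba, a protein of vesicle traffic, is on the plus strand at chr3:86224440-86224689 with 19 CG and a strength of 234. Macrod2, an ADP-ribose hydrolase, is on the plus strand at chr2:140395180-140395429 with 30 CG and a strength of 206. Rabgap1l, a regulator of Rab proteins, is on the minus strand at chr1:160792939-160793188 with 34 CG and a strength of 203.

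Celf2: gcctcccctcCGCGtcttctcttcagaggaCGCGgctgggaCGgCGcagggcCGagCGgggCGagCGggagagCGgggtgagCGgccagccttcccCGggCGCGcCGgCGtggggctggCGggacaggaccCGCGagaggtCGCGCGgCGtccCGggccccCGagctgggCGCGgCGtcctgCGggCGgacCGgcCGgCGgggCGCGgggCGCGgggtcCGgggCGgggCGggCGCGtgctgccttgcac

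Lpp: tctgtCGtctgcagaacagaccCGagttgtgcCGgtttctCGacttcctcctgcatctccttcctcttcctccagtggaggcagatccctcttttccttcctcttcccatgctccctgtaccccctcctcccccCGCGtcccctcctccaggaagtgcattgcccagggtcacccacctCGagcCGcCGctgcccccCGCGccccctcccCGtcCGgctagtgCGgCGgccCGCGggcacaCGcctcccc

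Lrba: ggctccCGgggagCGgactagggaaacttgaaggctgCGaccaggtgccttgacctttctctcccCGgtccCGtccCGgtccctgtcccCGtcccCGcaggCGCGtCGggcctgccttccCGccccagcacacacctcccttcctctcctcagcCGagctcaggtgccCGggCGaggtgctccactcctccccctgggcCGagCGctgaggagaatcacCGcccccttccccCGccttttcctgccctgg

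Macrod2: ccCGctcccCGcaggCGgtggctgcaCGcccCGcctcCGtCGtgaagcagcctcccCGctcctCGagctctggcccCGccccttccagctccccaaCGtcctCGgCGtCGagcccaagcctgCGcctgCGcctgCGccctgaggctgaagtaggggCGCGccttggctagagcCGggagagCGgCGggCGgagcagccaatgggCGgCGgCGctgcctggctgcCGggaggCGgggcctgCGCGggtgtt

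Rabgap1l: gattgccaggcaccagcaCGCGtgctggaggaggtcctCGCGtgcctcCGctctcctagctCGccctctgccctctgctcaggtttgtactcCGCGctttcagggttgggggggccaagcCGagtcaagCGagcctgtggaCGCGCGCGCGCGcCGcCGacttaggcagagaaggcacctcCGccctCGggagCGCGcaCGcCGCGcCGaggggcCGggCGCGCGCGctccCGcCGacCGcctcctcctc

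For contrast, a start is printed for each of the 3 longest genes of known strand that had no knockout-only hotspot within 1 kb of any listed start, chosen as the start nearest to such a hotspot. Cntnap2, an axonal adhesion protein, is on the plus strand at chr6:45059811-45060060 with 13 CG. Lsamp, an adhesion protein of limbic neurons, is on the plus strand at chr16:39984114-39984363 with 12 CG. Dlg2, a scaffold of the postsynaptic density, is on the plus strand at chr7:91090536-91090785 with 3 CG.

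Cntnap2: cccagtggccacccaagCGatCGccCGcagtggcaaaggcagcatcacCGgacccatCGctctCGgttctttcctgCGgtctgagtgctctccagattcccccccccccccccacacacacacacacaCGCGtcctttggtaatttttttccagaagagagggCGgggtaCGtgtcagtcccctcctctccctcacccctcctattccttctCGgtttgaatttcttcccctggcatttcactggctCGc

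Lsamp: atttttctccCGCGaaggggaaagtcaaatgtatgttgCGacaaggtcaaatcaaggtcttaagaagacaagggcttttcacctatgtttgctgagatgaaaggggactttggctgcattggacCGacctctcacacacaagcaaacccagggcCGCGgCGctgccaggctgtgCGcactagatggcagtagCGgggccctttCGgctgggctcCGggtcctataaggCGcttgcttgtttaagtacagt

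Dlg2: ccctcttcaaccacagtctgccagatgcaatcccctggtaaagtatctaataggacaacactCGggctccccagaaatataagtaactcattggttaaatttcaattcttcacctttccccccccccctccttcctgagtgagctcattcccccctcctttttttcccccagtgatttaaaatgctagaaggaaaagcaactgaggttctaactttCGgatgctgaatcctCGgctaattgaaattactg

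Long genes had a lower ratio of knockout to wild type hotspots than the rest of the autosomes. The knockout had 6.89 hotspots per Mb of long gene (6.51 to 7.29) and the wild type 5.41 (5.07 to 5.76), a ratio of 1.27. Over the rest of the autosomes the ratio was 1.64. With all hotspots within 1 kb of a protein-coding gene end set aside, the ratios were 1.24 in long genes and 1.27 in the rest. With the knockout list reduced to the number of hotspots of the wild type list, they were 0.81 and 0.98. On the full lists, gene ends included, the ratio was lower in long genes than in the rest on 19 of 19 autosomes. Chromosome 14 was the autosome where this full-list ratio fell below 1 in long genes, with 96 knockout and 101 wild type hotspots. Wild type density in long genes was above that of the rest on 11 of the 19 autosomes, and knockout density was below that of the rest on 17.

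The ratio moved with gene length. It was 1.27 in genes over 500 kb, 1.29 from 200 to 500 kb, 1.35 from 100 to 200 kb, 1.61 from 50 to 100 kb and 2.68 under 50 kb, with 1.55 outside protein-coding genes. Knockout density in the same order was 6.89, 8.41, 10.4, 11.5 and 16.9 hotspots per Mb, and 6.77 outside genes. Wild type density varied less, with 5.41, 6.50, 7.67, 7.10 and 6.31, and 4.36 outside genes. Long genes thus had a knockout density close to that outside genes, where the interval was 6.63 to 6.91, and a wild type density above it.

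**Figure D1:**
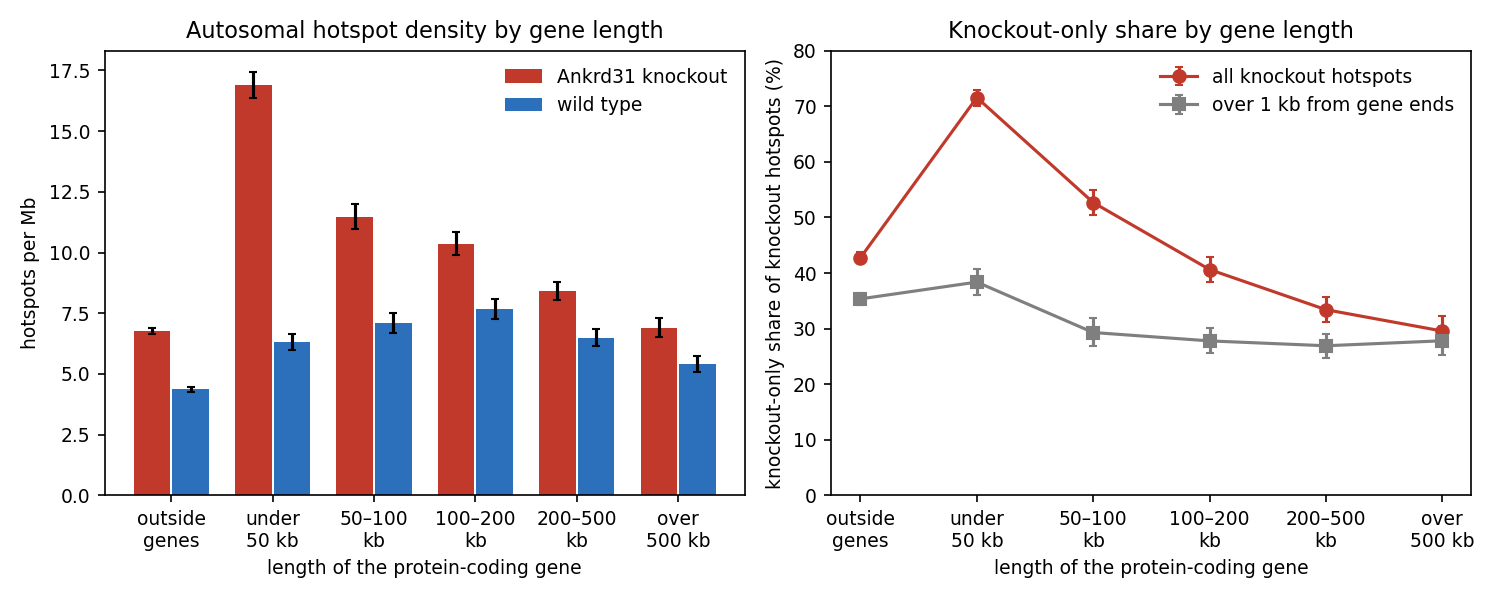
Left, autosomal hotspots per Mb in the knockout (red) and the wild type (blue) by the length of the longest protein-coding gene holding them. Right, the knockout-only share of knockout hotspots for all hotspots (red) and for those over 1 kb from a protein-coding gene end (grey). Bars are exact 95% Poisson and binomial intervals. The red share is 29.6% over 500 kb and 71.6% under 50 kb, and the grey one 27.8% and 38.4%.

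Knockout-only hotspots were a smaller part of the knockout hotspots in long genes than in any other length class or outside genes. Their share was 29.6% (27.0 to 32.2) in long genes and 48.5% (47.8 to 49.2) over the rest of the autosomes, and it was lower in long genes on 19 of 19 autosomes. By length class it was 33.4% from 200 to 500 kb, 40.6% from 100 to 200 kb, 52.7% from 50 to 100 kb and 71.6% under 50 kb. The interval from 200 to 500 kb was 31.3 to 35.6, which overlaps that of the long genes. Shared hotspots had a density of 4.86 per Mb in long genes (4.54 to 5.19), against 5.60, 6.15, 5.42 and 4.80 in the same order of classes and 3.88 outside genes. The wild-type-only share was 10.2% (8.36 to 12.3) in long genes, against 15.4% over the rest. Outside genes it was 11.2% (10.4 to 12.0), within the interval of the long genes.

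The difference in knockout-only share moved with the ends of genes. Hotspots centred no more than 1 kb from the first or last base of a protein-coding gene were counted as lying at a gene end. Of the 366 knockout-only hotspots in long genes 32 did so (8.74%, 6.06 to 12.1), against 48.5% in the rest and 47% of all autosomal knockout-only hotspots. The rule lowers this share, since a hotspot at the end of a long gene but centred just outside it is not taken. Those at the starts of Sugct (strength 351) and Cadm2 (327) were left out in this way. Inside or outside, 51 of the 215 long genes had a knockout-only hotspot within 1 kb of an end. Ends take up 0.407% of the territory of long genes and 12.9% of that of genes under 50 kb. Among shared hotspots in long genes 5 of 872 were at an end, and among wild-type-only ones 1 of 99.

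With all hotspots at gene ends set aside, the knockout-only share was 27.8% (25.3 to 30.4) in long genes and 33.4% in the rest, and lower in long genes on 17 of 19 autosomes. The same share was 26.9% from 200 to 500 kb, 27.8% from 100 to 200 kb and 29.3% from 50 to 100 kb. These intervals overlap that of the long genes, so away from ends the low share was no mark of genes over 500 kb. Under 50 kb the share was 38.4% and outside genes 35.4%. Knockout-only hotspots away from ends had a density of 1.87 per Mb in long genes (1.67 to 2.08), 2.07 from 200 to 500 kb and 2.12 outside genes.

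Counted start by start, the shares of long genes and of the pool of all other protein-coding genes lay within counting error of each other. Strand and starts were known for 169 of the 215 genes, from the RefSeq promoter table. Of their 271 listed starts 62 had a knockout-only hotspot within 1 kb (22.9%, 18.0 to 28.3), against 25.5% of the starts of other protein-coding genes. This count takes in hotspots centred just outside the gene. A wild type hotspot of any class lay within 1 kb of 2 of the 271 starts. Some starts of the same gene share a hotspot, as in Macrod2 and Rad51b. Starts are therefore not independent, and intervals over starts may be too narrow. The motif counted before each start was CG, which reads the same on both strands. With 0 to 4 CG in the 250 bases, 2.86% of long-gene starts had such a hotspot, with 5 to 9 it was 14.5%, with 10 to 19 it was 29.0%, and with 20 or more it was 49.2%. The shares at starts of other protein-coding genes were 2.35%, 15.8%, 36.9% and 50.3%. Starts with 20 or more CG made up 23.2% of long-gene starts and 24.7% of the others. The median was 19.5 CG at long-gene starts with a knockout-only hotspot and 7 at those without. Each interval over the starts of long genes covers the value over the starts of the other genes. The printed sequences were picked by hotspot strength or gene length, with Celf2 at 43 CG and a hotspot, and Dlg2 at 3 CG and none. They leave out opposite cases. Cacna1c had a start with 48 CG and no knockout-only hotspot within 1 kb, and Pde4b one with 1 CG and such a hotspot.

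**Figure D2:**
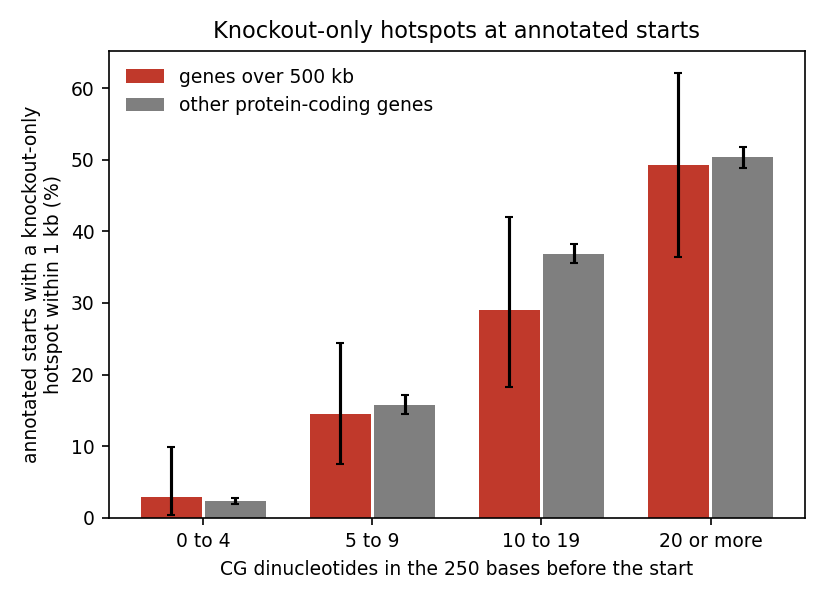
Share of annotated transcription starts with a knockout-only hotspot within 1 kb, by the number of CG dinucleotides in the 250 bases before the start, for genes over 500 kb (red) and other protein-coding genes (grey). Bars are exact 95% binomial intervals that treat starts as independent, though some starts share a hotspot. In both groups the share is under 3% with 0 to 4 CG, and with 20 or more it is 49.2% for genes over 500 kb and 50.3% for the others.

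Inside the genes, 20 knockout-only hotspots lay at the start of the long gene itself, 24 at a further annotated start within it, 2 at its 3′ end and 7 at an end of unknown strand. Another 3 lay at an end of another protein-coding gene (Gm5136, Dcp1b and Gm15881), and 8 at an end of a long noncoding RNA gene. The remaining 302, or 82.5%, lay in the gene body. Of the shared hotspots 857 of 872 lay in the body, and of the wild-type-only ones 98 of 99. Knockout-only hotspots at gene starts had a median strength of 102, those at further starts 74.5 and those in the body 60.5.

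The genes with a knockout-only hotspot at their first start included Alk, a receptor kinase (strength 184), Fstl5 (166), Rims1, an active-zone protein (165), Sdk1, a synaptic adhesion protein (132), Khdrbs2, an RNA-binding protein (111), and Exoc4, a subunit of the exocyst (107). Among further starts were those of Adgrb3, an adhesion receptor (167), Robo2, a receptor of axon guidance (162), Magi2, a synaptic scaffold (97), and Esrrg, a nuclear receptor, which had a hotspot at each of a pair of starts (92 and 79). At 3′ ends there were Lsamp (104) and Slit3, a guidance ligand (90). The shared hotspots at ends or starts of their own gene were in Mgat4c, Gpc6, Atrnl1, Arhgap15 and Kcnip4. They went in both directions. Kcnip4, a potassium channel partner, had a strength of 360 in the knockout and 156 in the wild type, and Mgat4c 107 and 97. Gpc6 had 206 in the knockout and 448 in the wild type, Arhgap15 98 and 233 and Atrnl1 98 and 135.

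Along the 169 genes of known strand, cut into 5 equal stretches by direction of transcription, the knockout-only share was highest at both ends. It was 35.6% in the first stretch (29.3 to 42.4), then 21.6%, 24.9% and 25.8%, and 39.0% in the last (32.2 to 46.1). With hotspots within 1 kb of gene ends left out, the stretches held 55, 44, 47, 48 and 76 knockout-only hotspots. The first stretch thus fell from 77 to 55 and the last from 78 to 76. Hotspots at further starts away from gene ends stayed in these counts. The shared hotspots numbered 139, 160, 142, 141 and 122. Knockout hotspots lay farther apart in long genes than in the rest of the autosomes, with a median distance to the nearest other one of 49.3 kb against 38.1 kb. For wild type hotspots the distances were 63.6 and 62.7 kb.

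Genes differed widely. The median gene had 5 knockout and 4 wild type hotspots, or 6.59 and 5.16 per Mb. Of the 215 genes 144 had more knockout than wild type hotspots, 49 had equal numbers and 22 had fewer. At least 1 knockout-only hotspot was found in 165 genes, and at least 1 wild-type-only hotspot in 73. Spearman's rho between knockout and wild type density over the 215 genes was 0.83, a description only, since shared hotspots enter both.

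The gene with most knockout hotspots was Anks1b, a postsynaptic scaffold of 1100.39 kb on chromosome 10, with 17 in the knockout and 8 in the wild type. All 8 wild type hotspots were shared, and the other 9 knockout hotspots had strengths of 59, 33, 52, 43, 20, 34, 66, 88 and 132, mostly below the median of 116 for all knockout hotspots in long genes. Lsamp had 16 knockout and 11 wild type hotspots, Lrp1b, a large LDL-receptor relative, 16 and 10, and Macrod2 16 and 9. Ctnna3, an alpha-catenin, had 15 and 12. Tenm2, a teneurin adhesion protein, had 14 and 11. Frmd4a, a FERM-domain scaffold, had 14 and 12 in 596.394 kb and so the highest density of all, 23.5 per Mb in the knockout and 20.1 in the wild type. Next in knockout density were Exoc4 with 17.9 and 15.2 per Mb, from 13 and 11 hotspots, and Dock1, a regulator of Rac, with 17.9 and 13.9. Next in wild type density was Cadps2, a vesicle-priming protein, with 13.8 per Mb in the knockout and 17.3 in the wild type.

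The highest knockout-only shares among genes with at least 10 knockout hotspots were in Ptprd, a receptor phosphatase of synapses, with 7 of 11 (63.6%), in Trpm3, a cation channel, with 7 of 12 (58.3%), and in Anks1b with 9 of 17 (52.9%). Nav3, a neuron navigator, and Nrg1, a growth factor, each had 50%. The 7 in Ptprd had strengths between 65 and 134, and the 7 in Trpm3 between 53 and 192. Grip1, a glutamate receptor scaffold just under that number of hotspots, had 9 knockout hotspots, 8 of them knockout-only, and 4 wild type hotspots.

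At the other end, Fhit, a diadenosine phosphate hydrolase whose human gene spans a fragile site, had 10 knockout and 11 wild type hotspots, and all 10 knockout hotspots were shared. Cdh13, a cadherin without a cytoplasmic part, had 13 and 12 with 1 knockout-only hotspot. Lrmda, a gene of melanocyte differentiation, had 12 knockout hotspots and the most wild type hotspots of any long gene, 16, of which 5 were wild-type-only with strengths of 33, 40, 147, 41 and 54. Hs6st3, a heparan sulfate sulfotransferase, had 8 knockout and 11 wild type hotspots. Cadps2 had 8 and 10.

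A few genes had no hotspot in a list. Gabrg3, a GABA receptor subunit, and Skint5 had none in either. Grik2, a glutamate receptor, and Pard3, a polarity protein, had 0 in the knockout and 1 each in the wild type, with strengths of 96 and 76. The genes with knockout but no wild type hotspots were Sntg1, Smyd3, Ryr3, Sema6d and Agbl1. They had 1, 2, 2, 2 and 1 knockout hotspots, of which the strongest, in Sema6d, had a strength of 148. For a gene of this length a count of 0 means that none reached the calling threshold of the list, whose weakest hotspot had 23 reads in the knockout and 28 in the wild type.

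**Figure D3:**
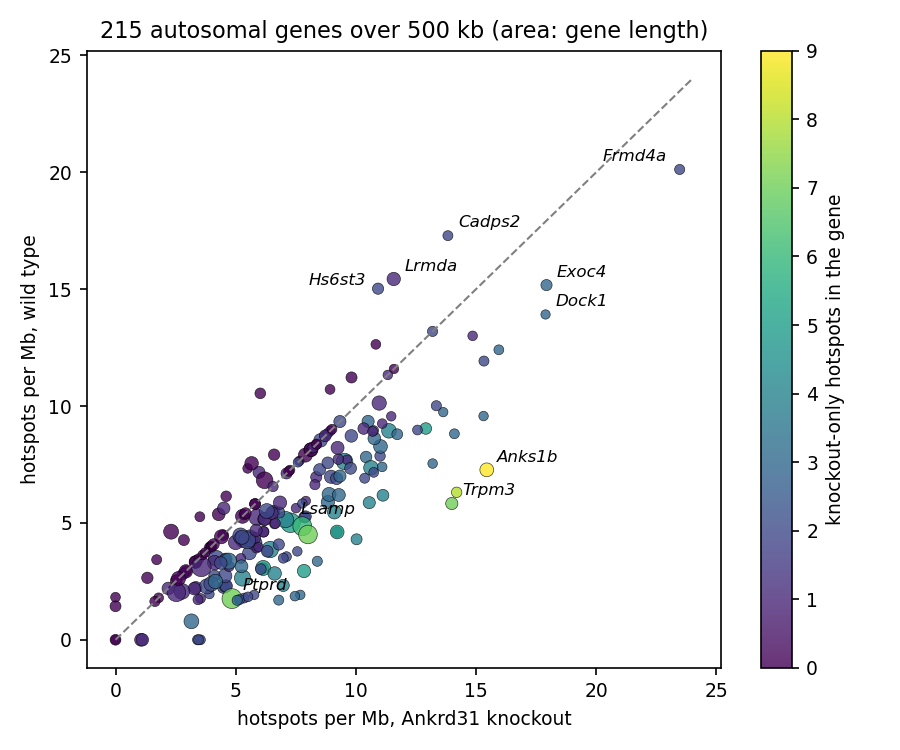
Hotspots per Mb in the knockout (x axis) and the wild type (y axis) for each of the 215 genes, with circle area by gene length and colour by the number of knockout-only hotspots. The dashed line marks equal density. Most genes lie below it, with Anks1b at 15.4 and 7.27 per Mb, while Cadps2 lies above it at 13.8 and 17.3.

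Within the long genes the ratio and the knockout-only share varied little with length, while both densities were lower in longer genes. The ratio of knockout to wild type hotspots was 1.29 from 500 to 600 kb, 1.16 to 750 kb, 1.29 to 1 Mb and 1.32 in the 55 genes over 1 Mb. The knockout-only share was 30.5%, 27.7%, 31.0% and 29.2% in the same order. Knockout density was 8.16, 6.83, 6.58 and 6.36 per Mb, and wild type density 6.35, 5.87, 5.12 and 4.83. Just inside the length limit, Edil3 (501.754 kb) had 2 hotspots in each list and Dock1 (502.961 kb) 9 in the knockout and 7 in the wild type. Just outside it, Dnm3 (495.872 kb) had 2 in each and Lrrc7 (494.798 kb) 1 in the knockout and 2 in the wild type.

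Knockout-only hotspots in long genes were weak. Their median strength was 62.5, against 74 in the rest of the autosomes. It was 68 from 200 to 500 kb, 78 from 100 to 200 kb, 88 from 50 to 100 kb, 79 under 50 kb and 69 outside genes. Of knockout-only hotspots 8.74% lay at gene ends in long genes and 48.5% in the rest, and strengths away from ends were not compared. Of the 366, 22 (6.01%) exceeded the median strength of the whole wild type list, not only its autosomal part, against 14.6% in the rest. They held 11.5% of the summed knockout strength in long genes, against 29.7% in the rest. Wild-type-only hotspots had a median of 59, against 65 in the rest. Long genes held 7.25% of autosomal strength in the knockout and 7.98% in the wild type, from 6.05% and 7.67% of the hotspots. The hotspots covered 1981.31 kb at a mean strength of 194 in the knockout and 1712.65 kb at 296 in the wild type.

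The strongest knockout-only hotspot was the one at the inner start of Celf2, chr2:6871570-6873816, with a strength of 389, ranked 2168 in its list. It was followed by one in Agbl4, a tubulin deglutamylase (332, in the gene body), then Lpp (258), Lama2, a laminin chain (238), and Ralyl, an RNA-binding protein (237). The strongest wild-type-only hotspots included those in Gpc6, a glypican (198), Cadps2 (152), Celf2 (151) and Lrmda (147). The Celf2 one, chr2:6874534-6875954, starts within 1 kb of the end of the knockout-only hotspot at the Celf2 start.

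Shared hotspots were compared by relative strength, in which each strength is scaled to the median of its own list over the shared hotspots on autosomes (151 in the knockout and 182 in the wild type). The log2 ratio of knockout over wild type had a median of 0.10 in long genes, with quartiles of -0.48 and 0.59 and an SD of 0.81 over 872 hotspots. In the rest of the autosomes the median was -0.02. On strength as deposited, with no scaling, the medians were -0.17 in long genes and -0.29 in the rest, so the sign depends on the scaling while the order of both did not. The median in long genes was above that of the rest on 13 of 19 autosomes.

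Decreases of over 2-fold were a smaller share in long genes than in shorter genes and a larger one than outside genes. Over 2-fold lower in the knockout were 87 of 872 (9.98%, 8.07 to 12.2), against 16.4% in the rest and 15.9% of all autosomal shared hotspots. The share was 16.5% from 200 to 500 kb, 39.0% from 50 to 100 kb and 7.28% outside genes (6.6 to 8.0). Over 2-fold higher were 105 (12.0%), against 12.4% in the rest and 12.4% of all. On strength as deposited, 15.8% were over 2-fold lower and 6.88% higher in long genes, and 23.2% and 7.0% in the rest, so the balance between higher and lower depends on the scaling. By length class the median log2 ratio was 0.10 over 500 kb, -0.12 from 200 to 500 kb, -0.46 from 100 to 200 kb, -0.70 from 50 to 100 kb and -0.50 under 50 kb, with 0.21 outside genes. The median wild type strength of the shared hotspots was 181, 185.5, 210.5, 242 and 219 in this order, and 160 outside genes. Classes with stronger wild type hotspots thus had lower ratios, and length and wild type strength were not separated between the classes. Within long genes the median log2 ratio was 0.37 in those over 1 Mb and -0.07 from 500 to 600 kb. The share over 2-fold lower was 14.6% from 500 to 600 kb, 12.8% to 750 kb, 8.85% to 1 Mb and 6.36% over 1 Mb. Shared hotspots in long genes had a median deposited strength of 167 in the knockout and 181 in the wild type, and those in the rest 149 and 182.

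The ratio also moved with wild type strength, which enters both the grouping and the ratio. With all autosomal shared hotspots in 5 equal groups by wild type strength, weakest first, the median log2 ratio in long genes was 0.65, 0.37, 0.09, -0.17 and -0.49. In the rest it was 0.68, 0.27, -0.07, -0.35 and -0.76. Long genes were above the rest in the 4 stronger groups, by 0.10 to 0.27, and slightly below it in the weakest.

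**Figure D4:**
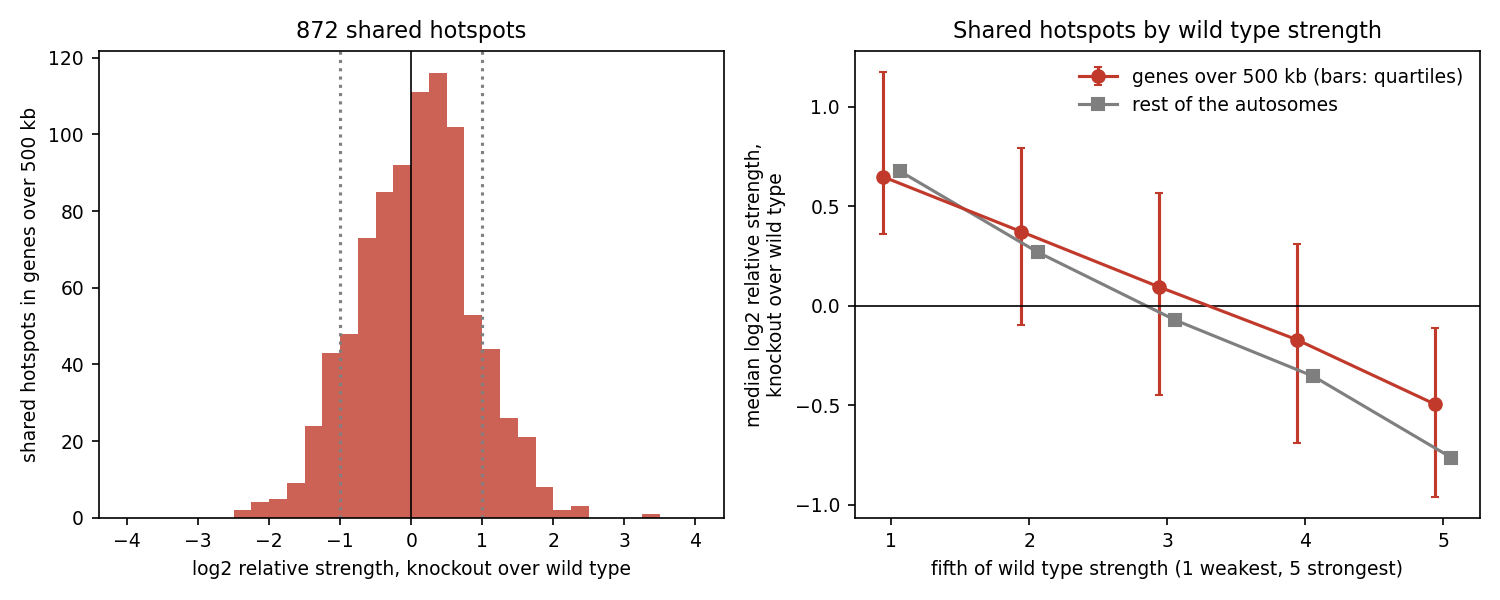
Left, the log2 ratio of relative strength, knockout over wild type, for the 872 shared hotspots in long genes, with dotted lines at 2-fold. Right, the median log2 ratio by group of wild type strength for long genes (red, bars are quartiles) and the rest of the autosomes (grey). Long genes go between 0.65 in the weakest and -0.49 in the strongest group.

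The strongest hotspots of the knockout and of the wild type list in long genes were partly the same, with Cadm2, Hdac9, Nrg1 and Erbb4 among the 10 strongest of both. The strongest in the knockout lay in Cadm2, an adhesion protein, with strengths of 2016 in the knockout and 3024 in the wild type (log2 ratio -0.32, -0.40 to -0.23). In Hdac9, a histone deacetylase, they were 1907 and 3885 (-0.76, -0.84 to -0.68), and in Nrg1 1515 and 2993 (-0.71, -0.80 to -0.62). Other strong hotspots were relatively higher in the knockout. Pcdh15, a protocadherin of sensory hair cells, had 1304 in the knockout and 1108 in the wild type (0.50, 0.39 to 0.62). Nrxn3, a neurexin, had 1196 and 1015 (0.51, 0.38 to 0.63), and Galnt13, a glycosyltransferase, 1312 and 1221 (0.37, 0.26 to 0.49). The strongest in the wild type lay in Erbb4, a neuregulin receptor, with 1266 in the knockout and 4072 in the wild type (-1.42, -1.51 to -1.32). Immp2l, a mitochondrial peptidase subunit, had 738 and 2189 (-1.30).

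The largest increase was in Cntnap5b, a contactin-associated protein, where 1 hotspot had a strength of 983 in the knockout and 110 in the wild type. This is a log2 ratio of 3.43 (3.11 to 3.75), or 10.8-fold. In the next hotspot along the gene, the strengths were 476 and 1017, a log2 ratio of -0.83. Hotspots in Lrrc4c, a synaptic adhesion protein, with 365 and 84 (2.39), and in Cdh18, a cadherin, with 430 and 102 (2.35), came after it. The largest decreases were in Cdkal1, a tRNA-modifying enzyme, with 184 in the knockout and 1184 in the wild type (-2.42, -2.65 to -2.18), and in Fgf14, a regulator of sodium channels, with 73 and 469 (-2.41). Tenm3, a teneurin, had one with 128 and 691 (-2.16). These were picked by their size of change, so their values are a description.

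In some genes the shared hotspots all changed in the same direction. Of 154 genes with at least 3 shared hotspots, 22 had all of them higher, 14 had all lower and 118 were mixed. On strength as deposited 10 had all higher, 26 all lower and 118 neither, so the balance turned round with the scaling. In a gene with few shared hotspots agreement in direction arises easily by chance, and how often it would was not tested. In Celf2 all 5 were lower, with strengths of 210, 130, 226, 165 and 200 in the knockout and 1037, 361, 1203, 876 and 320 in the wild type. The median log2 ratio was -2.03, and the counting interval excluded 0 for all 5. Celf2 thus held these lower shared hotspots beside the strongest knockout-only hotspot inside any long gene.

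Exoc4 had 10 of 10 lower, with a median log2 ratio of -0.82 and a range of -1.92 to -0.12, and 8 of the intervals excluded 0. Hs6st3 had 6 of 6 lower (median -0.95). In Cadps2 5 of 6 were lower (-0.79). Among genes with at least 5 shared hotspots, Celf2, Hs6st3, Exoc4 and Cadps2 were among the 5 lowest medians. With the median of its group of wild type strength subtracted from each log2 ratio, their medians were -1.30, -0.52, -0.69 and -0.62 in this order. None of their shared hotspots was then higher.

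In Lsamp all 11 shared hotspots were higher, with strengths between 93 and 792 in the knockout and between 75 and 518 in the wild type. The median log2 ratio was 0.58, and 9 intervals excluded 0. Its strongest had 792 in the knockout and 518 in the wild type. In Nrg3, a growth factor, all 8 were higher, with a median of 1.07. The strengths were 182, 73, 88, 242, 60, 341, 135 and 255 in the knockout and 167, 29, 47, 128, 72, 111, 83 and 252 in the wild type. Asic2, an acid-sensing channel, had 8 of 9 higher (median 1.02), and Cntnap5b 4 of 5 (1.22). Cacna2d3, a calcium channel subunit, with 5 of 6 higher (0.76), and Nkain2, with 5 of 5 (0.73), completed the 5 highest medians. On deposited strength, where a log2 ratio is lower by 0.27, the smallest of these increases change sign, and neither Lsamp nor Nrg3 has all of its shared hotspots higher. The Lsamp hotspot with 207 in the knockout and 242 in the wild type is one of them, and in Nrg3 the one with 60 and 72. Wild type strength also enters these medians. With the median of its group of wild type strength subtracted from each log2 ratio, Lsamp had a median of 0.63 with 9 of 11 higher. Nrg3 then had 0.65 with 7 of 8 higher, Asic2 0.65 with 8 of 9, and Cntnap5b 0.55 with 3 of 5.

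Agreement within a gene was no property of the long genes alone. Over genes with at least 3 shared hotspots, 27.8% of the variance of the log2 ratio lay between genes in long genes and 35.2% in other protein-coding genes. Neighbouring shared hotspots in the same long gene were on the same side of 0 in 427 of 670 cases (63.7%), against 58.6% elsewhere on the autosomes. The pairs were a median of 112 kb apart in long genes and 141 kb elsewhere. Up to 100 kb apart the shares were 63.2% and 61.1%, from 100 to 300 kb 68.0% and 57.5%, and over 300 kb 53.8% and 56.5%. With the median of the group of wild type strength subtracted, they were 61.5% and 59.8% over all pairs.

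**Figure D5:**
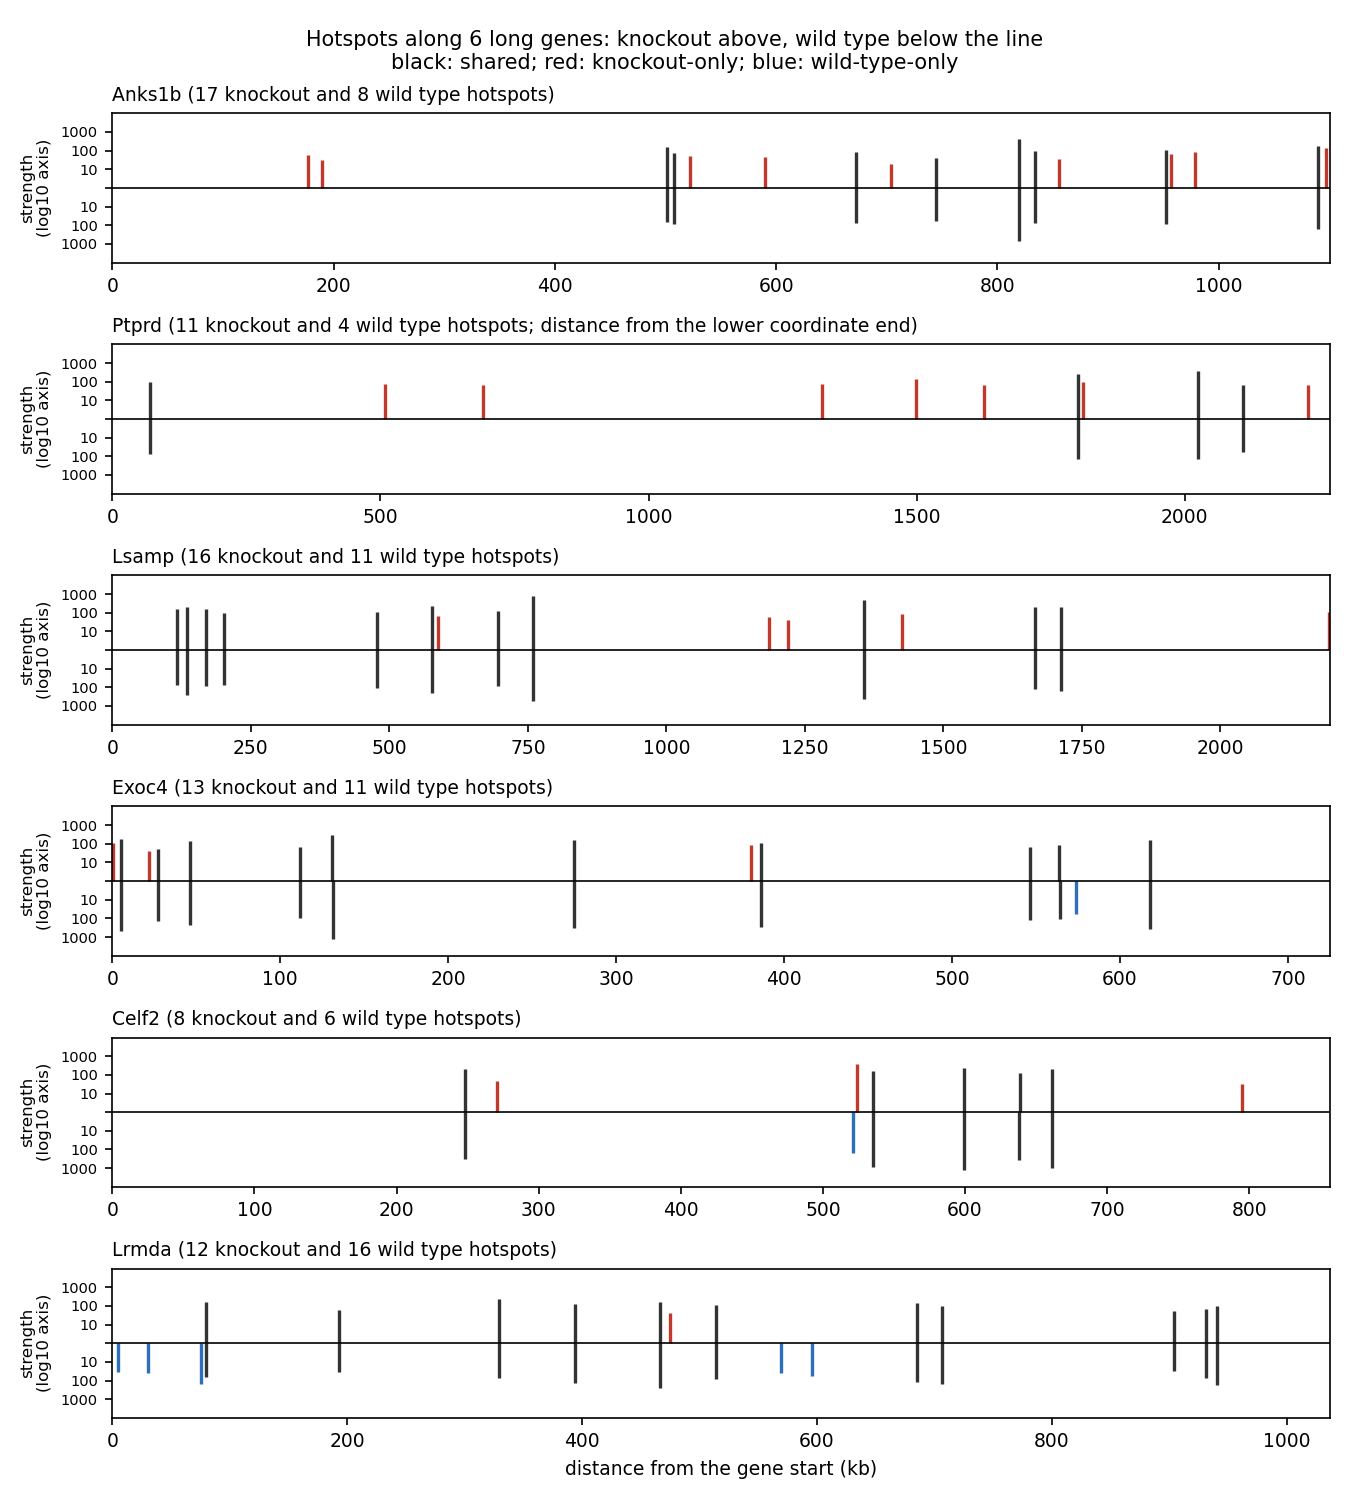
Hotspots along 6 long genes, with knockout hotspots above the line and wild type ones below, as strength on a log10 axis against distance from the gene start in kb (from the lower coordinate end for Ptprd, whose strand is not known here). Black lines are shared hotspots, red knockout-only and blue wild-type-only. Anks1b has 9 red lines and no blue one, and Lrmda 1 red and 5 blue.

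By function, most groups of long genes lay near the values of all 215. Groups may share genes. The 25 long genes whose human counterparts lie at common fragile sites, such as Fhit, Wwox and Macrod2, had 210 knockout and 166 wild type hotspots, a ratio of 1.27. Of their knockout hotspots 26.2% were knockout-only (20.4 to 32.7), and the median log2 ratio of 155 shared ones was 0.24. More knockout than wild type hotspots were found in 19 of these genes and fewer in 2. Cadherins and protocadherins, which join cells, had 46 and 35 hotspots in 6 genes, a ratio of 1.31. All 6 had more in the knockout, as did 144 of all 215 long genes, and the knockout-only share was 28.3%.

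Neurexins and contactin-associated proteins, adhesion proteins of axons and synapses, had 36 knockout and 33 wild type hotspots in 6 genes, and 5 of the 36 were knockout-only (13.9%, 4.67 to 29.5). Their median log2 ratio was 0.44 over 31 shared hotspots, with 6 over 2-fold lower and 6 over 2-fold higher. The 3 phosphodiesterase genes Pde4d, Pde4b and Pde1c, whose enzymes break down cyclic nucleotides, had 13 and 6 hotspots, and 8 of the 13 were knockout-only (61.5%, 31.6 to 86.1). Of these 5 were in Pde4d, which had 8 knockout and 4 wild type hotspots. Guidance receptors and ligands had 66 and 49 in 10 genes with a knockout-only share of 33.3%, and Robo1, a Slit receptor, had 5 of its 8 knockout hotspots in this class.

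Transcription regulators had the lowest median log2 ratio of the 15 groups, -0.25 over 64 shared hotspots in 15 genes, with 8 over 2-fold lower and 2 over 2-fold higher. Over all long genes 9.98% were over 2-fold lower and 12.0% higher. Npas3 and Zfhx3, both DNA-binding factors, had medians of -0.72 and -0.68, while Foxp2 was at 0.43 and Mecom at 0.40. Dystrophin-associated proteins had the highest, 0.60, over 9 shared hotspots in 3 genes. LDL receptor relatives and CSMD proteins had 42 knockout and 28 wild type hotspots in 6 genes, and 0 of 28 shared ones were over 2-fold lower, against 9.98% over all long genes. The 93 long genes in none of the groups had 487 and 388 hotspots, a knockout-only share of 31.0% and a median log2 ratio of 0.03.

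Over all chromosomes except Y, the lists held 4203380 knockout and 4376692 wild type reads in hotspots, and background made up 6.03% and 4.39% of them. Ankrd31 itself, on chromosome 13, held 0 knockout and 1 wild type hotspots, which does not test the genotype labels.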

How the data were processed

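DMC1-SSDS was measured in 2 testis samples per genotype of the 12 in the series; H3K4me3 and input samples were not used here. The deposited lists, 1 per genotype, give for each hotspot a read count, a background estimate, a strength signal equal to count minus background, and strength as a percent of the list, per the file headers. CASAVA, Bowtie2, BWA, MACS2 and the build mm10 appear, without versions, in the submitters' processing notes. Starts are printed as deposited; whether they count from 0 or 1 is not stated.

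Hotspots were paired by an overlap of at least 1 bp and assigned to RefSeq genes (GRCm38.p6, mm10 coordinates) by their centre, with Python 3.11.15, pandas 2.3.3, NumPy 2.4.6 and SciPy 1.17.1. Counts have exact Poisson, shares exact binomial (Clopper-Pearson) intervals, and log2 ratios 95% counting intervals from reads; PCR reads are not independent molecules. Length classes start at 3 Mb of each chromosome. The assignment and pairing were tested on simulated data. Named genes had the most hotspots, the highest or lowest density, knockout-only share (at least 10 knockout hotspots) or median ratio (at least 5 shared), no hotspot in a list, a hotspot at their own ends, or membership of a functional group. The members and groups were chosen with earlier results of these data known. No starts were available here for 46 genes. A few genes that this rule picks are not reported here.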

Additional observations from a re-analysis of the deposited data

How the results depend on the processing

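No paired analysis was possible because the lists hold no values of single samples, so a fit with the replicate number as a block and leaving out a replicate could not be run. Of 99 values recomputed under 15 alternatives 66 stayed, 31 moved by more than their counting interval and 2 changed sign; 3 alternatives were added after the data were seen. The knockout-only share stayed below that of the rest of the autosomes in 9 of 9 alternatives, the median log2 ratio above it in 12 of 12 and the share over 2-fold lower below it in 12 of 12. Limits on length or strength leave fewer hotspots by construction; other causes of a move were not tested.

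For genes over 1 Mb the densities were 6.36 per Mb in the knockout and 4.83 in the wild type, the wild-type-only share 6.78%, the gene-end share of knockout-only hotspots 5.15%, the median log2 ratio 0.37, and 6.36% were over 2-fold lower and 15.2% higher. For genes over 300 kb the gene-end share was 14.9%, with the whole interval inside the gene 1.78%, and with ends of all annotated genes 12.6%. With a strength of at least 100 the densities were 3.84 and 3.54 per Mb, the ratio 1.08, the knockout-only share 8.41% (6.39% away from ends), the wild-type-only share 1.26%, the gene-end share 25.9%, and 6.91% were over 2-fold lower and 9.82% higher. With the knockout list reduced to its strongest, matched in number to the wild type list, the knockout density was 4.40 per Mb, the ratio 0.81 (0.98 in the rest of the autosomes), the knockout-only share 11.4% (9.14% away from ends), the wild-type-only share 27.8%, the gene-end share 22.2%, and 14.6% were over 2-fold higher. On strength as deposited the median log2 ratio was -0.17, with 15.8% over 2-fold lower and 6.88% higher, and on shares of summed strength -0.087, with 14.1% and 8.49%. Without chromosomes 13, 14 and 15 the wild-type-only share was 8.31%. A hotspot under a list's calling threshold is absent from it, so a class refers to the lists.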
